A study of Basiliscus vittatus and Chrysopelea ornata and Dasypeltis gansi with 10 samples.

Results

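The metabotropic glutamate receptors (mGluRs) are described here in the adult cerebellum of 10 squamate species. They were taken by protein name, and 5 of the 630 one-to-one orthologs in the deposited expression table carry such a name, namely metabotropic glutamate receptor 1 (mGluR1), metabotropic glutamate receptor 3 (mGluR3), metabotropic glutamate receptor 5 (mGluR5), metabotropic glutamate receptor 7 (mGluR7) and metabotropic glutamate receptor 8 (mGluR8). The study asked whether cerebellar gene expression varies with the way a species moves. All animals were wild-type adults, and the table holds 1 column per species, its library. Of the 6 limbless species, 5 are of multi-habitat modes. Pseudopus apodus (a legless lizard), Chrysopelea ornata and Pantherophis guttatus (both colubrid snakes) move by lateral undulation. Python regius and the colubrid Dasypeltis gansi use other movements. The sand boa Eryx colubrinus is a facultative burrower, for which the paper lists slow lateral undulation. The 4 quadrupedal species were the terrestrial lizards Pogona vitticeps and Lepidothyris fernandi (Mochlus fernandi in the sample records), the arboreal chameleon Trioceros jacksonii and the facultatively bipedal lizard Basiliscus vittatus. The spread within a species is unknown, since there is 1 value per gene and species. The sources at hand do not state how sequencing duplicates were merged. All tests therefore compare species, which are related by descent and so not independent of each other. Without a spread within species it cannot be said whether neighbours in an order of species differ for any receptor.

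Metabotropic glutamate receptors are G-protein-coupled receptors of glutamate, the main excitatory transmitter of the vertebrate brain. mGluR1 and mGluR5 form group I, which couples through Gq to phospholipase C and the release of calcium from stores. mGluR3 belongs to group II, while mGluR7 and mGluR8 belong to group III, and both groups couple to Gi/o and lower cyclic AMP. In the rodent cerebellum mGluR1 is abundant in Purkinje cells, where it carries the slow response to parallel fibres and is needed for synaptic depression and motor coordination. mGluR3 is known from glia and interneurons, and group III receptors act mainly at presynaptic terminals to restrain transmitter release. The remaining receptors of the family were not analysed here, and no receptor sequence was at hand.

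Values are FPKM, fragment numbers scaled to the length of the transcript and to the mapped total of the library. Levels of different receptors can thus be set side by side within a library, as far as their transcripts were assembled completely. Completeness of the receptor transcripts was not checked, and it also enters their shares and ratios. No value of the expression table was 0, for a receptor or any other gene. The lowest value of any gene was 0.2 FPKM. Exactly 0.50 FPKM, the paper's expression threshold for keeping an ortholog, was listed 30 times, and 0 of these were receptor values. An ortholog had to pass that threshold in at least 1 sample, so lower values remain. The sum over the 630 genes was lowest in L. fernandi (6289 FPKM) and highest in E. colubrinus (15880 FPKM), and the same species had the lowest and highest median gene, 5.24 and 19.8 FPKM. FPKM keep no read numbers, and the methods give read numbers only as a mean over species, so the depth of each library is not known. The libraries held genes known from the cerebellum, as inositol 1,4,5-trisphosphate receptor type 1, the store calcium channel of Purkinje cells, reached 155.7 FPKM, although it stood at only 1.38 FPKM in P. apodus. Reelin, the secreted protein of granule cells, ranged from 26.8 to 320.9 FPKM. In bulk tissue, fewer cells of a type and less RNA per cell cannot be told apart.

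Among the 5 receptors, mGluR5 had the highest mean over the 10 species at 21.9 FPKM, close to mGluR1 at 20.004 and mGluR8 at 19.7 FPKM, whereas mGluR3 and mGluR7 averaged 9.34 and 9.24 FPKM. These means exceeded those of 73.5%, 68.3%, 67.5%, 26.8% and 26.03% of the 630 genes, in that order. The mean of mGluR5 includes a value of 56.7 FPKM in E. colubrinus. By the median over species mGluR1 was highest at 22.2 FPKM, ahead of mGluR5 at 19.7 and mGluR8 at 15.3 FPKM. In FPKM as deposited the species differed most in mGluR8 and least in mGluR1, whereas after centring on a common median, described further on, mGluR5 and mGluR3 varied less than mGluR1.

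mGluR1, the group I receptor of Purkinje cells, ranged only 3.23-fold across the species. The limbless species lay between 18.8 (P. apodus) and 30.4 FPKM (P. guttatus), with a median of 23.0 FPKM. In the quadrupedal species it was 9.41 FPKM in P. vitticeps, 9.62 FPKM in L. fernandi, 13.8 FPKM in T. jacksonii and 23.2 FPKM in B. vittatus. The categories thus overlapped through B. vittatus alone, and both terrestrial lizards were lowest. Relative to the median gene of its own library, mGluR1 stood highest in P. apodus at 2.59-fold and lowest in P. vitticeps at 0.801-fold. L. fernandi, low in FPKM, was at 1.84-fold on this relative measure, and only P. vitticeps and T. jacksonii lay below their library median.

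mGluR5, the other group I receptor, was above the library median in all 10 species. Its lowest limbless value was 12.9 FPKM (P. apodus) and its highest 56.7 FPKM (E. colubrinus), with a median of 20.8 FPKM. In the quadrupedal species it was 7.83 FPKM in L. fernandi, 17.1 FPKM in P. vitticeps, 20.2 FPKM in B. vittatus and 22.4 FPKM in T. jacksonii. The sand boa stood apart from all other species, the next value being 26.9 FPKM in P. regius. There mGluR5 was the gene of rank 46 among the 630, while in the other species its rank lay between 171 and 268. Against the median gene, mGluR5 was 2.86-fold in E. colubrinus and between 1.15-fold and 1.95-fold elsewhere.

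mGluR3, the group II receptor of the table, was lower than mGluR5 in all 10 libraries. Limbless species again had their lowest value in P. apodus (5.43 FPKM) and their highest in E. colubrinus (19.9 FPKM), with a median of 9.97 FPKM. In the quadrupedal species it was 2.25 FPKM in L. fernandi, 3.64 FPKM in B. vittatus, 9.74 FPKM in P. vitticeps and 12.5 FPKM in T. jacksonii. The categories overlapped, although L. fernandi and B. vittatus lay below every limbless species, and E. colubrinus and P. regius above every quadrupedal one. Only in E. colubrinus did mGluR3 reach the median gene of its library (1.00-fold), and it was lowest on this measure in B. vittatus at 0.345-fold.

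mGluR7, a group III receptor of presynaptic active zones, had limbless values between 2.97 (P. apodus) and 21.3 FPKM (P. guttatus), with a median of 7.67 FPKM. In the quadrupedal species it was 2.26 FPKM in L. fernandi, 4.26 FPKM in T. jacksonii, 10.5 FPKM in B. vittatus and 13.6 FPKM in P. vitticeps. The other colubrid snakes had much lower values than P. guttatus, with 4.57 FPKM in C. ornata and 6.25 FPKM in D. gansi. mGluR7 exceeded the library median in 2 libraries, those of P. guttatus (1.27-fold) and P. vitticeps (1.16-fold).

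mGluR8, the other group III receptor, ranged 28.8-fold, against a median of 10.3-fold for all 630 genes. Limbless species lay between 2.27 (C. ornata) and 26.7 FPKM (P. regius), with a median of 15.3 FPKM. In the quadrupedal species it was 1.77 FPKM in L. fernandi, 7.50 FPKM in P. vitticeps, 40.1 FPKM in B. vittatus and 51.0 FPKM in T. jacksonii. The quadrupedal lizards held both the highest and the lowest values, with the arboreal and the facultatively bipedal species above every limbless one and the terrestrial species at the low end. In T. jacksonii and B. vittatus the receptor stood at ranks 46 and 66 of 630 genes, and in C. ornata and L. fernandi at ranks 571 and 569. T. jacksonii, B. vittatus and P. vitticeps are all iguanian lizards, so the high level was not shared by all members of that clade.

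**Figure D1:**
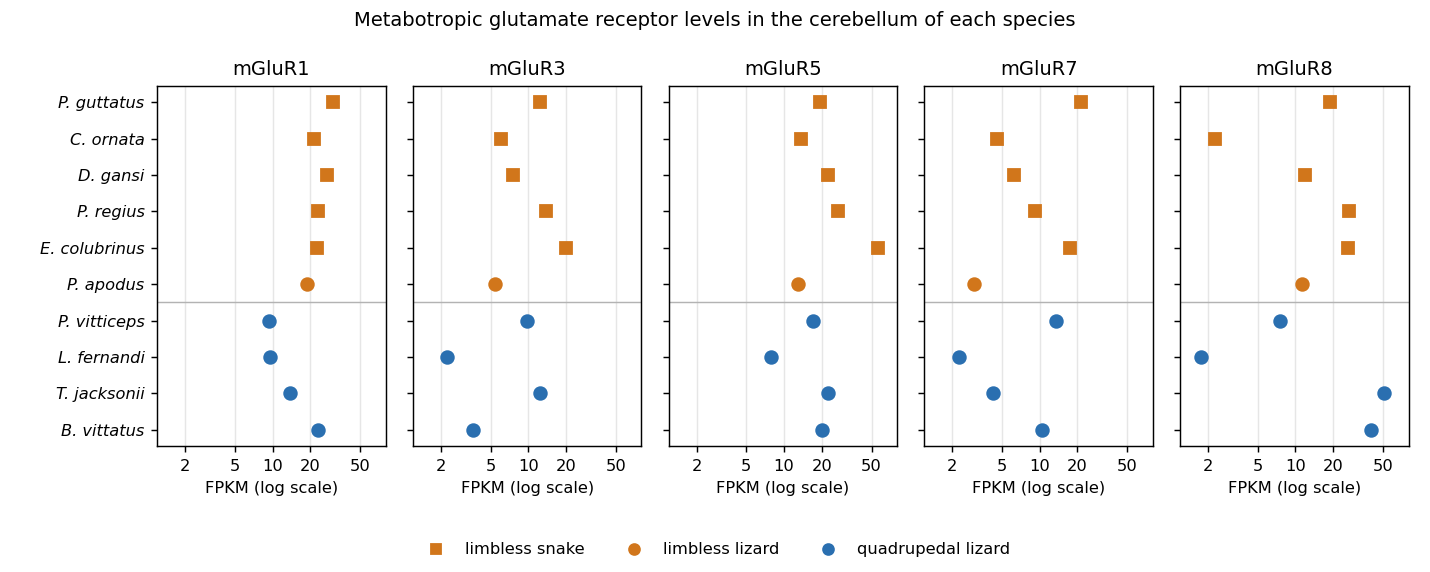
Level of each receptor in FPKM (log axis) by species, with 1 point per library; squares are snakes, circles lizards, orange limbless and blue quadrupedal species. mGluR1 lies between 9.41 and 30.4 FPKM, whereas mGluR8 lies between 1.77 (L. fernandi) and 51.0 FPKM (T. jacksonii).

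The receptor that led differed between species. mGluR1 was the highest of the 5 receptors in 5 libraries (P. guttatus, C. ornata, D. gansi, P. apodus and L. fernandi), mGluR5 in 3 (P. regius, E. colubrinus and P. vitticeps) and mGluR8 in 2 (T. jacksonii and B. vittatus). All 3 species of the multi-habitat mode with lateral undulation were led by mGluR1. E. colubrinus, a facultative burrower with slow lateral undulation, was led by mGluR5. Some orders were nearly constant, as mGluR1 exceeded mGluR3 and mGluR7 in 9 of 10 libraries each, P. vitticeps being the exception. Other orders were not, as mGluR1 exceeded mGluR5 in 6 libraries, of which 4 were limbless and 2 quadrupedal, and mGluR8 exceeded mGluR7 in 6.

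Group I receptors together held between 34.8% of the summed receptor FPKM in T. jacksonii and 73.5% in L. fernandi. Their share averaged 59.2% ± 9.56 (SD, n = 6) in the limbless and 49.8% ± 16.6 (SD, n = 4) in the quadrupedal species, and the ranges of the categories overlapped. The balance within each group moved as well. The ratio of mGluR1 to mGluR5 ran from 0.402 in E. colubrinus to 1.58 in C. ornata, and that of mGluR8 to mGluR7 from 0.497 in C. ornata to 11.96 in T. jacksonii. The latter exceeded 3 also in B. vittatus (3.83) and P. apodus (3.78). In contrast, mGluR5 over mGluR3 lay between 1.56 and 3.48 in 9 species, with B. vittatus at 5.54. These sums and ratios were chosen after their values were seen and were not tested.

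**Figure D2:**
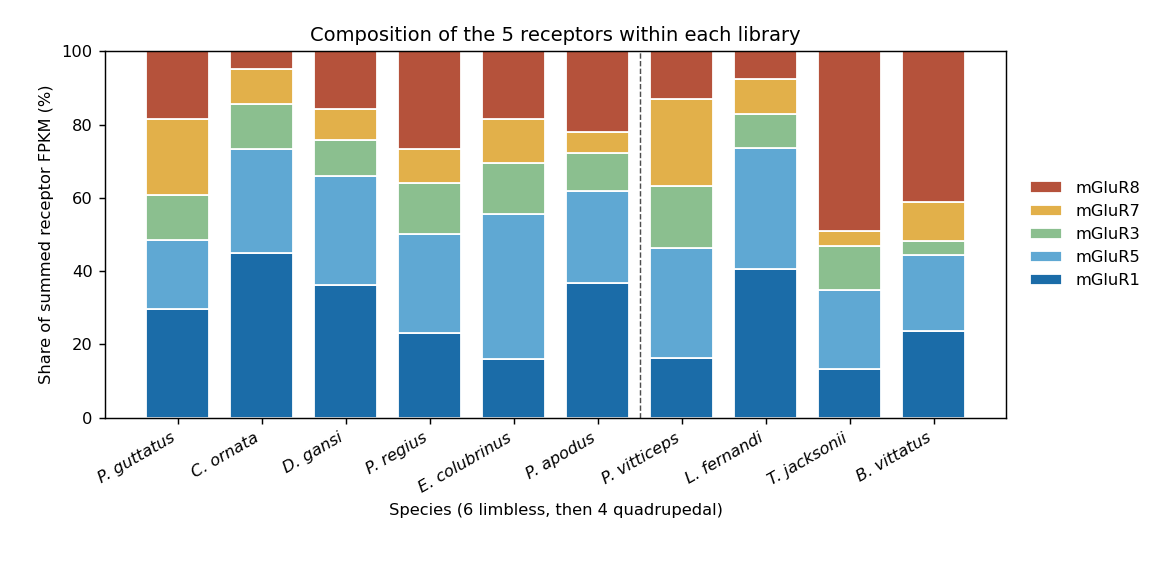
Share of each receptor in the summed FPKM of the 5 receptors (percent, stacked bars to 100), by species, with the 6 limbless species left of the dashed line and the 4 quadrupedal species right of it. mGluR8 takes 49.1% in T. jacksonii, 41.1% in B. vittatus, 13.1% in P. vitticeps and 7.46% in L. fernandi. In the limbless species it takes 4.72% to 26.8%.

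A share within a library does not depend on the scale of that library, so shares were compared between the locomotor categories with a two-sided exact permutation test over 210 assignments of species, for which the smallest possible p is 0.00476. None of the 5 receptors passed, and none had an unadjusted p under 0.05. The share of mGluR1 was 31.1% ± 10.4 (SD, n = 6) in limbless and 23.5% ± 12.2 (SD, n = 4) in quadrupedal species, a difference of 7.62 percentage points (exact permutation p = 0.319, adjusted p = 0.798 over the 5 receptors). The share of mGluR8 was 17.6% ± 7.38 (SD, n = 6) against 27.7% ± 20.5 (SD, n = 4), a difference of -10.0 percentage points (exact permutation p = 0.295, adjusted p = 0.798). The shares of mGluR3, mGluR5 and mGluR7 differed by 1.63, 1.82 and -1.04 percentage points. Differences of this size were within the spread between species of a category.

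In FPKM, 4 of the 5 receptors had a higher mean log2(FPKM + 1) in limbless than in quadrupedal species, where 71.0% of all 630 genes did, and 4 of 5 once all libraries were centred on one common median, where 51.3% of all genes did. The exception was mGluR8 on both scales. After centring, mGluR7 counted as higher with a log2 difference of only 0.013, about the median of all genes. The 5 receptors had a median log2 difference of 0.47, against 0.35 over all genes, and of 0.13 against 0.01 after centring. No receptor passed limma's test over all genes (0 of 5, where limma called 0.00% of the 630), and none had an unadjusted p under 0.05, which 9.84% of all genes had. In no receptor did all limbless species lie on one side of all quadrupedal species, which 3.02% of all genes showed.

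mGluR1 had the smallest p of the receptors, at rank 103 of 630, with a log2 difference of 0.81 (standard error 0.47, 95% interval -0.18 to 1.80, adjusted p = 0.621 from limma). Its interval after centring was -0.45 to 1.39 around 0.47. For mGluR8 the log2 difference was -0.09 (95% interval -1.74 to 1.55), and it turned positive without C. ornata (0.33), T. jacksonii (0.51) or B. vittatus (0.39). mGluR3 and mGluR5 had log2 differences of 0.66 (95% interval -0.50 to 1.83) and 0.47 (-0.65 to 1.59), and that of mGluR5 was 0.20 without E. colubrinus and 0.16 without L. fernandi. That of mGluR7, 0.35 (-0.92 to 1.63), was at -0.035 without L. fernandi. Each of these intervals, from FPKM as deposited, includes 0 and also a level higher by 1 log2 unit in limbless species.

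Snakes against lizards differs from the comparison of categories only in the place of P. apodus, and it uses the same 10 libraries. mGluR1 had 25.1 ± 3.70 FPKM (SD, n = 5) in snakes and 15.0 ± 5.97 FPKM (SD, n = 5) in lizards. The snakes C. ornata (21.6 FPKM), E. colubrinus (22.8 FPKM) and P. regius (23.13 FPKM) lay below 1 lizard, B. vittatus (23.15 FPKM). The log2 difference was 0.78 (standard error 0.45, adjusted p = 0.438 from limma) and 0.20 after centring. mGluR3, mGluR5 and mGluR7 had log2 differences of 0.83, 0.67 and 0.78, which came to 0.25, 0.09 and 0.20 after centring. mGluR8 had 17.2 ± 10.3 FPKM (SD, n = 5) in snakes and 22.3 ± 21.8 FPKM (SD, n = 5) in lizards, with a log2 difference of 0.01, and of -0.57 after centring. All 5 receptors thus had a higher mean log2 in snakes before centring, where 80.8% of all genes did, and 4 of 5 after it, where 48.9% did. None passed the test (0 of 5, 0.00% of the 630 genes), none had an unadjusted p under 0.05 (13.5% of all genes) and none was free of overlap (1.90% of all genes).

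**Figure D3:**
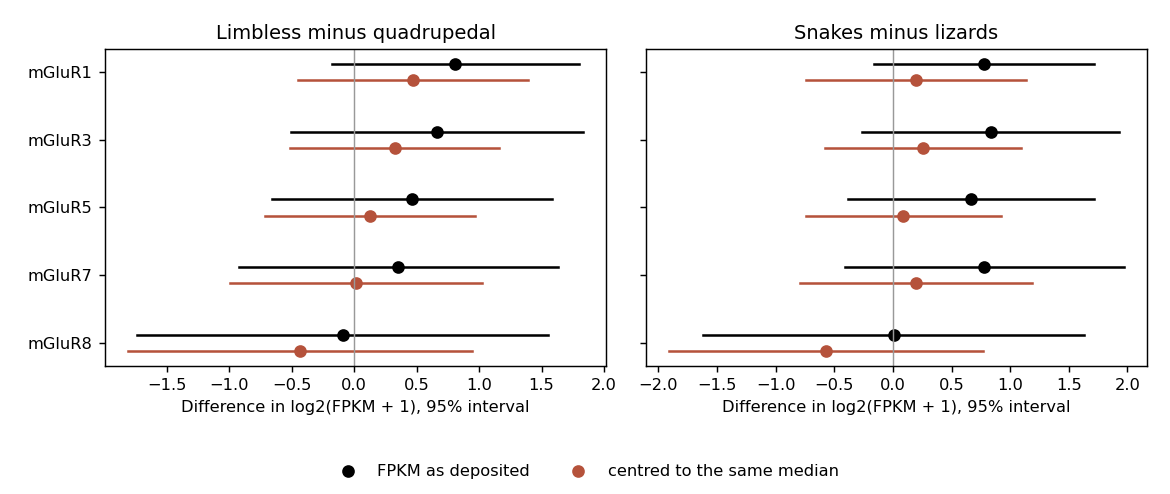
Difference in log2(FPKM + 1) between limbless and quadrupedal species (left) and between snakes and lizards (right) for each receptor, with limma's 95% interval, from FPKM as deposited (black) and after centring all libraries on one common median (red). Every interval includes 0, and the values of mGluR1 in the left panel are 0.81 and 0.47.

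Much of the variation of mGluR3 and mGluR5 between species was shared with the libraries as a whole. Over the 10 species, Pearson's r between the receptor's log2(FPKM + 1) and the median of the other genes was 0.926 for mGluR3 and 0.872 for mGluR5, against a median of 0.491 over all genes, and only 1 and 8 genes had a higher r. For mGluR7, mGluR8 and mGluR1 it was 0.759, 0.690 and 0.483. These r describe 10 libraries, in which all genes share the library's scale.

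Centring therefore narrowed the receptors to different degrees. The range of mGluR5 fell from 7.24-fold to 2.44-fold and that of mGluR3 from 8.85-fold to 2.50-fold, whereas that of mGluR1 went from 3.23-fold to 2.94-fold. After centring, the SD of log2 values across species was 0.36 for mGluR5, with 4 of 630 genes below it, and 0.38 for mGluR3, with 13 genes below it. mGluR1 followed at 0.56 (16.2% of genes below), mGluR7 at 0.64 (26.3% below) and mGluR8 at 1.13 (81.3% below), where the median of all genes was 0.83. Before centring, mGluR1 had been the steadiest of the 5, with an SD of 0.56. With 1 species left out at a time, between 2 and 15 genes had a smaller centred SD than mGluR5 and between 3 and 33 than mGluR3. That SD was 0.23 for mGluR5 without E. colubrinus and 0.27 for mGluR3 without B. vittatus. With quantile normalization the counts were 61 for mGluR5, whose SD was then 0.479, 23 for mGluR3 and 68 for mGluR1, whose SD was 0.486. The range on that scale was wider for mGluR5, at 3.30-fold, than for mGluR1, at 2.54-fold. There mGluR5 was steadier than mGluR1 by the SD only, and narrowly. The low centred spread was noticed in these data and is a description without a test.

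**Figure D4:**
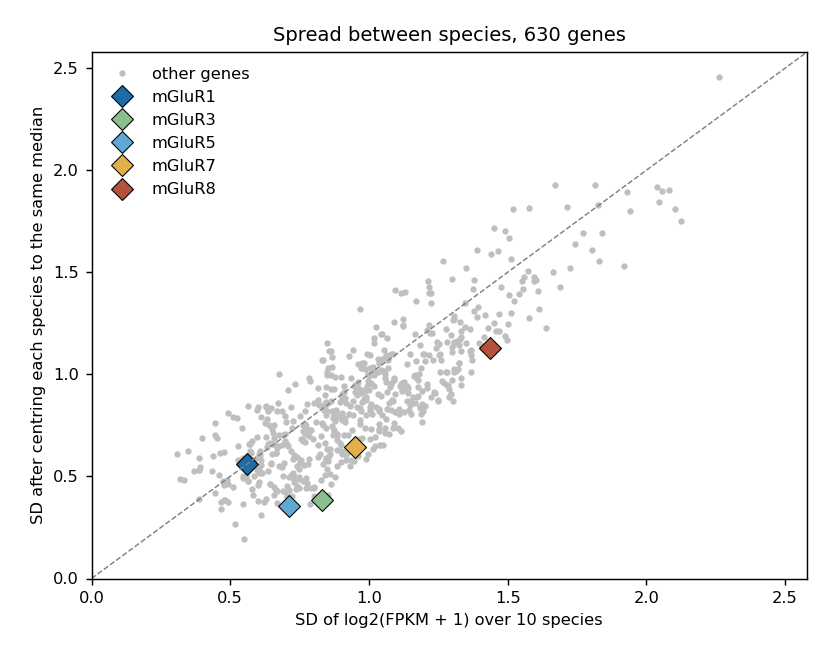
SD over the 10 species of log2(FPKM + 1) (horizontal axis) and of the same values after centring all libraries on one common median (vertical axis), with 1 grey point per gene and the 5 receptors as diamonds; the dashed line marks equal values. mGluR3 and mGluR5 lie far below the line, at 0.38 and 0.36 after centring, while mGluR1 lies on it at 0.56.

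After centring, the receptors did not vary together detectably. Over the 10 pairs of receptors, Pearson's r across the 10 species ran from -0.549 to 0.309, no pair had a permutation p under 0.05, and the smallest adjusted p over the 10 pairs was 0.970. The lowest r joined mGluR1 and mGluR3 (Spearman's rho = -0.636, permutation p = 0.0970 for r and 0.0545 for rho, adjusted 0.970 and 0.545), and r was -0.513 without P. vitticeps and T. jacksonii, the species farthest from the median of mGluR1. The highest joined mGluR5 and mGluR8 (r = 0.309, rho = 0.333, permutation p = 0.388 and 0.350, adjusted 0.997 and 0.959), and r was 0.547 without E. colubrinus and P. guttatus. Without centring all 10 pairs had a positive r, on a scale where the median r over all pairs of genes was 0.247. The lowest was 0.328 for mGluR1 and mGluR3, with 59.2% of all gene pairs below it. mGluR3 and mGluR5 reached 0.824 (rho = 0.818, permutation p = 0.00272 and 0.00572, adjusted 0.0272 and 0.0454), with 98.9% of all gene pairs below it. This r fell to 0.539 without L. fernandi and E. colubrinus. By rank, mGluR5 and mGluR8 also passed without centring (rho = 0.794, permutation p = 0.00908, adjusted 0.0454; r = 0.693, permutation p = 0.0241, adjusted 0.0912; r = 0.695 without E. colubrinus and L. fernandi). On centred values mGluR3 and mGluR5 had an r of 0.189. It was -0.338 without E. colubrinus, but 0.596 without B. vittatus and L. fernandi, the species farthest from the median of mGluR3.

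The rows of the table whose centred pattern over the 10 species was closest to each receptor are given as a description. Closest to mGluR1 were myelin-associated neurite-outgrowth inhibitor (r = 0.913), sn1-specific diacylglycerol lipase alpha (0.854) and probable ATP-dependent RNA helicase DDX23 (0.822), each of which was lowest in P. vitticeps, as mGluR1 was. Closest to mGluR3 were regulator of nonsense transcripts 1 (r = 0.927), corepressor interacting with RBPJ 1 (0.754) and nuclear receptor coactivator 6 (0.711). Those of mGluR5 were eukaryotic translation initiation factor 4 gamma 1 (r = 0.876), 26S proteasome non-ATPase regulatory subunit 2 (0.861) and THO complex subunit 5 homolog (0.823), all at their highest in E. colubrinus. The row most like mGluR7 was volume-regulated anion channel subunit LRRC8A (r = 0.957), the highest r of any receptor, followed by ubiquitin carboxyl-terminal hydrolase 10 (0.825) and replication factor C subunit 1 (0.737). mGluR8 had no row with an r above 0.8, and GMP synthase [glutamine-hydrolyzing] (r = 0.768), tissue-type plasminogen activator (0.723) and liprin-alpha-2 (0.688) came closest. These rows were picked for their r, and no test was attached to it.

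The signalling partners of the receptors in the table did not pass the test either. Of 9 rows for the Gq pathway of group I receptors, 4 had a higher mean log2 in limbless species, where 71.0% of all genes did. Their median log2 difference was -0.06 against 0.35 over all genes, and 0 passed limma's test (0.00% of the 630 genes). After centring 2 of the 9 were higher, where 51.3% of all genes were, with a median of -0.40 against 0.01. In snakes against lizards 7 of the 9 were higher in snakes, where 80.8% of all genes were. The median log2 difference was then 0.48 against 0.56 over all genes, and 0 passed. After centring 3 of the 9 were higher in snakes, where 48.9% of all genes were, with a median of -0.10 against -0.02. The 9 rows hold 1-phosphatidylinositol 4,5-bisphosphate phosphodiesterase beta-1 more than once. Diacylglycerol kinase kappa, which removes the second messenger diacylglycerol, averaged 10.9 ± 9.54 FPKM in the 6 limbless and 23.2 ± 10.3 FPKM (SD) in the 4 quadrupedal species (log2 difference -1.42, adjusted p = 0.503 from limma). Inositol 1,4,5-trisphosphate receptor type 3, a calcium release channel of the endoplasmic reticulum, had 16.6 ± 10.6 against 9.84 ± 8.94 FPKM. Targets that group II and III receptors inhibit were adenylate cyclase type 6 and voltage-dependent N-type calcium channel subunit alpha-1B. Both had a higher mean log2 in limbless species, where 71.0% of all genes did. Their log2 differences were 0.29 and 1.28 (adjusted p = 0.870 and 0.621 from limma). After centring the differences were -0.05 and 0.93, so that 1 of the 2 was higher, where 51.3% of all genes were.

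The other glutamate and GABA-B receptors of the table, glutamate receptors 1 and 4 and the subunits of the GABA-B receptor, were 4 rows, and 4 had a higher mean log2 in limbless species, where 71.0% of all genes did (3 after centring, where 51.3% did, and 0 passed). Gamma-aminobutyric acid type B receptor subunit 2, of the same receptor class as the mGluRs, had the smallest p, with 39.0 ± 29.1 against 16.9 ± 5.70 FPKM (SD over 6 and 4 species) and an adjusted p of 0.621 from limma. Glutamate receptor 1, an AMPA receptor subunit, averaged 24.7 ± 17.5 against 12.5 ± 8.52 FPKM (SD over 6 and 4 species). In snakes against lizards the smallest p was that of gamma-aminobutyric acid type B receptor subunit 1, with a log2 difference of 2.70 (adjusted p = 0.192 from limma). Its value in P. apodus was 0.50 FPKM, which is listed 30 times in the expression table and equals the paper's expression threshold for orthologs. Between limbless and quadrupedal species, where P. apodus is on the limbless side, the log2 difference of this subunit was 0.91.

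Markers of the cell types in the tissue were set beside the receptors. Among the Purkinje cell markers, inositol 1,4,5-trisphosphate receptor type 1 and sn1-specific diacylglycerol lipase alpha were also counted in the Gq pathway. The others were unconventional myosin-Va and voltage-dependent T-type calcium channel subunit alpha-1G. Of 4 Purkinje cell markers, 3 had a higher mean log2 in limbless species and 4 in snakes, where 71.0% and 80.8% of all genes did, and their summed level ran from 41.5 to 240.1 FPKM in limbless and from 63.4 to 129.9 FPKM in quadrupedal species. The smallest p among them was that of voltage-dependent T-type calcium channel subunit alpha-1G, with 7.91 ± 7.85 against 2.08 ± 1.34 FPKM (SD over 6 and 4 species). The lowest value of that channel, in a quadrupedal species, was the repeated 0.50 FPKM. Of 4 granule cell markers 2, of 3 astroglia markers 1 and of 4 oligodendrocyte markers 2 were higher in limbless species. In snakes 2, 2 and 3 of these markers were higher. After centring, 3 Purkinje cell, 2 granule cell, 0 astroglia and 2 oligodendrocyte markers were higher in limbless species, where 51.3% of all genes were. The sums of the granule cell, astroglia and oligodendrocyte markers ran from 65.5 to 434.3, from 17.5 to 78.7 and from 27.5 to 188.6 FPKM in limbless species. In quadrupedal species they ran from 92.3 to 272.0, from 44.9 to 131.2 and from 38.8 to 77.5 FPKM. Electrogenic sodium bicarbonate cotransporter 1 of the astroglia list (log2 difference -1.57) and carnosine synthase 1 of the oligodendrocyte list (1.28) had unadjusted p under 0.05 (adjusted p = 0.367 and 0.429 from limma). So did 9.84% of all genes. The other astroglia rows differed by -0.14 (fibroblast growth factor receptor 3) and 0.20 (tenascin). The other oligodendrocyte rows differed by 0.88 (ATP-binding cassette sub-family A member 2), -0.14 (gelsolin) and -0.72 (tenascin-R). Granule cell rows differed by -0.92 (contactin-2), -0.74 (reelin), 0.64 (NT-3 growth factor receptor) and 0.60 (astrotactin-1). None of the markers passed the test, and the part of cell composition in the receptor levels was not tested.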

How the data were processed

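The members and gene lists were chosen with earlier results of these data known. By the paper's methods, ribosomal RNA was depleted, and reads were trimmed (Trimmomatic), filtered (SortMeRNA) and assembled de novo per species. Orthologs were inferred with OrthoFinder and kept above a fixed threshold, and abundance came from RSEM (Trimmomatic and RSEM are also in the submitters' processing notes). The deposited values are FPKM, normalized by the authors to transcript length and mapped reads. Assembled transcript length and completeness enter FPKM, and no adjustment between species is stated.

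Species came from the labels, and category, mode, family and lineage from the paper. Genes were tested on log2(FPKM + 1), which understates changes of low genes, with limma 3.58.1 (R 4.3.3), unfiltered, at a Benjamini-Hochberg adjusted p of 0.05 over 630 genes. The p-values measure the spread between species. Shares used exact permutation tests and correlations 100000 permutations (Python 3.11.15, scipy 1.17.1). Alternatives were pseudocounts of 0.1 and 0.5, a mean of at least 5 FPKM, centring, quantile normalization, an exact rank sum test, a log ratio for shares, and leaving out species. For each receptor the 3 rows of highest r are named. In each list at least the row of smallest p between limbless and quadrupedal species is named.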

Additional observations from a re-analysis of the deposited data

Results flagged for a closer look

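Of 40 sets of values examined (5 receptors, in FPKM and as shares, in limbless species, quadrupedal species, snakes and lizards), 1 held a species far from the others of its group. mGluR5 in E. colubrinus, at 56.7 FPKM, lay above the next limbless species, P. regius at 26.9 FPKM, by 0.681 of the whole range of the limbless species, where 0.625 marks a value apart. On the log2 scale the gap was 0.504 of the range, below that mark. Chance alone marks about 1 in 20 groups. Without E. colubrinus the log2 difference of mGluR5 between limbless and quadrupedal species was 0.20, against 0.47 with it.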

How the results depend on the processing

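Limma called 0 genes between limbless and quadrupedal species (62 at an unadjusted p under 0.05, 45 by the exact rank sum test, which also called 0) and 0 between snakes and lizards (85 and 59), and between 0 and 4 and between 0 and 2 genes with 1 species left out at a time, none of them a receptor. The counts above 0 came without D. gansi (4 and 2), T. jacksonii (2 and 1) and B. vittatus (1 and 1). No receptor passed under any alternative. mGluR1, mGluR3 and mGluR5 kept their direction in both comparisons with other pseudocounts, centring, quantile normalization and species left out. The expression filter and the rank sum tests leave these differences as they are. Leaving out 1 species moved the limbless log2 difference of mGluR7 between -0.035 and 0.69 and that of mGluR8 between -0.90 and 0.51. In snakes against lizards mGluR8 ran from -0.59 to 0.54, and was -0.57 centred (also for the rank sum test on centred values), -0.42 quantile normalized and -0.86 without the libraries of lowest median, L. fernandi and P. apodus, a choice made after seeing the data. Share differences with 1 species left out ran from -0.639 to 3.78 percentage points for mGluR3, from -0.479 to 4.06 for mGluR5 and from -3.68 to 2.86 for mGluR7, and the log ratio of mGluR5 differed by -0.015. By Pearson's r, 1 receptor pair passed without centring (mGluR3 and mGluR5, r = 0.824), where mGluR1 and mGluR3 had an r of 0.328. With 1 species left out, r of mGluR3 and mGluR5 on centred values ran from -0.338 to 0.514. Causes were not tested. No paired analysis was possible because each species has 1 library. The depth of each library is not known, so no counting error can be given for single values.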
